A study of Mus musculus with 27 samples.

Results

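The genes described here encode 3 branches of the potassium channels. They are the inward rectifiers (symbols beginning Kcnj), the two-pore channels (Kcnk) and the calcium- or sodium-activated channels (Kcnma, Kcnn, Kcnt and Kcnu). Members were the protein-coding genes whose symbol is one of these stems followed by a number. This gave 36 of the 52636 gene identifiers in the count tables, 14 of them Kcnj, 14 Kcnk, 4 Kcnn, 2 Kcnt, 1 Kcnma and 1 Kcnu. Kcnj11 carries such a symbol and was not analysed here.

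RNA was sequenced from bulk tissue of 2 brain regions, the frontal cortex and the striatum, of adult mice of about 2.5 months on the 129S1 genetic background. Wild-type mice were compared with homozygous Igf2enh-/- mice, which lack a 4.9 kb fragment between H19 and Igf2 in all cells. The deletion was made in embryonic stem cells as a single targeted allele, and a loxP site was left behind once a cross to Hprt-CRE mice had removed the selection cassette. The labels name no treatment. The frontal cortex gave 6 wild-type libraries and 6 Igf2enh-/- libraries, each with 3 females and 3 males. The striatum gave 7 wild-type libraries (3 females and 4 males) and 8 Igf2enh-/- libraries (4 of each sex). Libraries carry numbers from 1 to 27 and no mouse is named, so frontal cortex and striatum libraries may come from the same mice, and p-values measure the spread between libraries.

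Totals ran from 23686945 to 33926904 counts per library, so that 1 CPM, the standard scaling of a count to the library total, stood for 23.7 to 33.9 counts. Levels below are CPM after trimmed mean of M-values (TMM) scaling over all 27 libraries. Igf2 was higher with the deletion, with medians of 119 CPM against 71.3 CPM in frontal cortex and 51.9 CPM against 37.7 CPM in striatum, where library 15 stood apart at 257 CPM. The summed level of markers of the striatal medium spiny neuron lay between 183 and 262 CPM in frontal cortex and between 3876 and 10760 CPM in striatum. Markers of cortical projection neurons summed to between 2546 and 2833 CPM in frontal cortex and to between 66.8 and 1373 CPM in striatum. Library 20, a wild-type striatum, held the highest striatal sum of the cortical markers and the lowest sum of the medium spiny markers. Library 15, an Igf2enh-/- striatum, held 4710 CPM of 15 choroid plexus markers, while the remaining striatal libraries held 174 to 371 CPM. Results that rest on these 2 libraries are given with and without them.

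Inward rectifiers pass potassium into the cell more easily than out of it and hold the membrane near its resting potential, and the Kir3 branch opens when a G protein-coupled receptor releases Gβγ. Two-pore channels carry the leak current that sets input resistance, and several of them respond to stretch, lipids or pH. Calcium- and sodium-activated channels open after activity and shape the repolarization and the pause that follow a spike. In the striatum, inward rectifiers of the Kir2 branch are known for the hyperpolarized resting state of medium spiny neurons.

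The first question was how the levels of these genes differ between the regions. In wild-type mice, Kcnn3, Kcnj2, Kcnk2 and Kcnk13 were between 2.55-fold and 3.39-fold higher in striatum, while the G protein-gated rectifier genes Kcnj6, Kcnj3 and Kcnj9 were between 3.13-fold and 6.64-fold lower. Of the 36 members, 27 had a mean of at least 1 CPM and were tested, in a fit of all 27 libraries with edgeR's quasi-likelihood test and sex as a term. A difference was called at an adjusted p under 0.05. In wild-type mice 22 of these 27 were called, 7 higher and 15 lower in striatum, where 67.5% of the 14909 genes tested were called, 33.9% higher and 33.6% lower. At a change of at least 2-fold the numbers were 14 members, 4 higher and 10 lower, against 11.8% of all genes, 5.9% higher and 5.94% lower. In 19 members the 7 striatum libraries lay apart from the 6 frontal cortex libraries without overlap, as they did in 37.9% of all genes. The median log2 fold change of the members was -0.34, beside 0.01 for all genes. In bulk tissue a lower level can come from fewer cells of a type or from less RNA per cell, and these cannot be told apart.

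The Igf2enh-/- libraries gave the same comparison in separate samples. There 23 of 27 members were called, 7 higher and 16 lower, where 68.9% of all genes were called, 34.2% higher and 34.7% lower. At 2-fold or more 12 members passed, 4 higher and 8 lower, against 12.5% of all genes, 6.13% higher and 6.39% lower. Groups did not overlap in 16 members, against 41.9% of all genes. Of the 27 members, 22 were called in both genotypes with the same direction, Kcnk6 was called in Igf2enh-/- mice, and Kcnj8, Kcnj10, Kcnj13 and Kcnj14 were called in neither. Signs matched in 26 members, Kcnj13 being the exception. Its Igf2enh-/- value rests on library 15, at 16.5 CPM, where the median of the striatum group was 0.0635 CPM. Its mean over all libraries was 1.16 CPM, and without library 15 it fell under the filter. With library 15 left out and all genes of at least 1 count kept, it was -2.87 in Igf2enh-/- mice. It was then called lower in both genotypes, so the exception and the missing calls depend on library 15. Across all 27 members the log2 fold changes of the genotypes correlated with Pearson's r = 0.903, and across the 26 without Kcnj13 with r = 0.996. Both values describe genes that share libraries and are not independent. Without Kcnj13 the median difference between the genotypes was 0.07 and the largest 0.37 on the log2 scale.

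**Figure D1:**
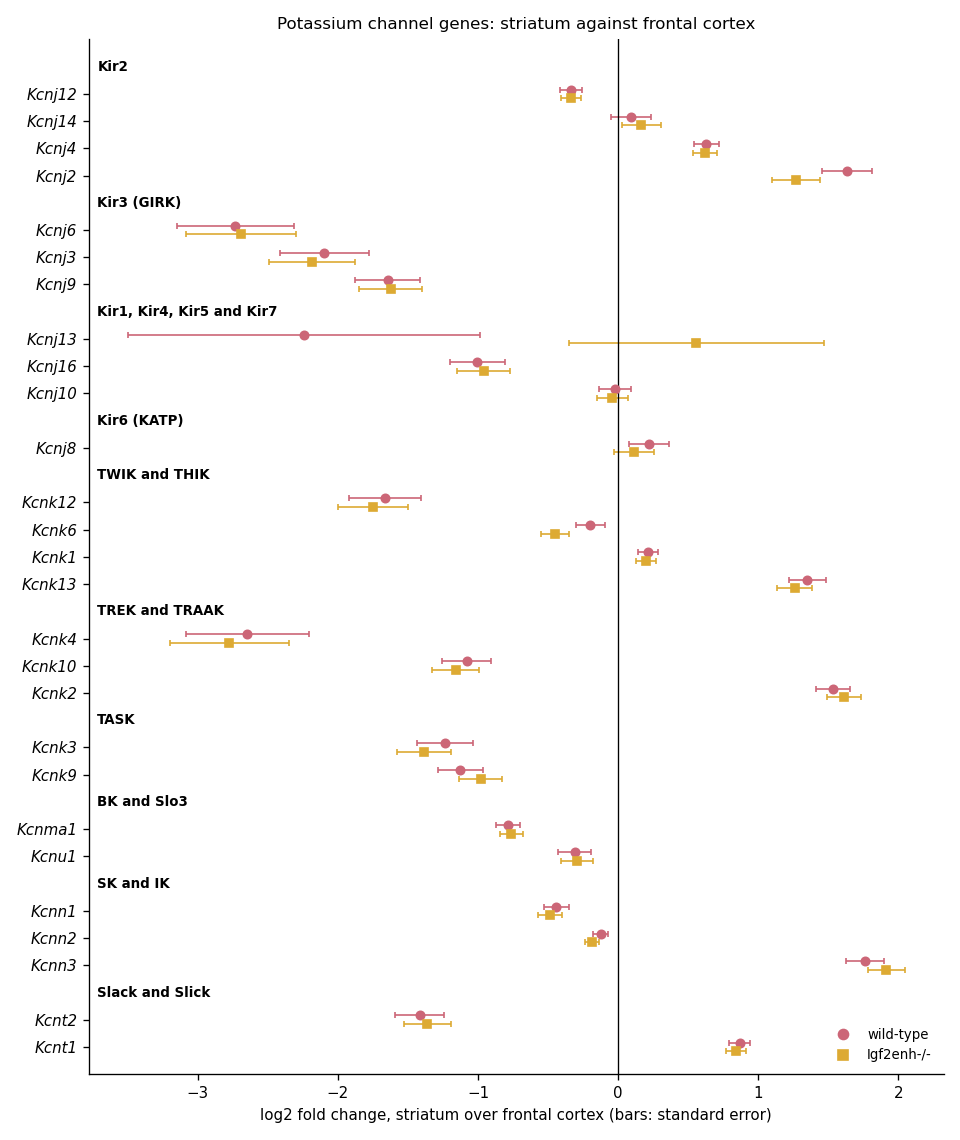
Log2 fold change of striatum over frontal cortex for each of the 27 tested members, grouped by channel family, with wild-type mice as circles, Igf2enh-/- mice as squares and bars of 1 standard error. The genotypes lie close together in every family except for Kcnj13, at -2.24 in wild-type and 0.56 in Igf2enh-/- mice. The Igf2enh-/- value of Kcnj13 rests on library 15.

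In 12 members the change was at least 2-fold in both genotypes, higher in striatum for Kcnj2, Kcnk2, Kcnk13 and Kcnn3 and lower for Kcnj3, Kcnj6, Kcnj9, Kcnk3, Kcnk4, Kcnk10, Kcnk12 and Kcnt2. RefSeq promoters on GRCm38.p6 were matched for 29 of the 36 members, all but Kcnj14, Kcnk3, Kcnk6, Kcnk9, Kcnn2, Kcnt1 and Kcnu1. The 250 bases before the start site are printed for the 8 of the 12 with exactly 1 matched promoter, to set the letters beside genes that differed by 2-fold or more. The first 5 were lower in striatum and the last 3 higher. They lie at chr2:55435720-55435969 on the plus strand (Kcnj3), chr1:172329323-172329572 on the minus strand (Kcnj9), chr19:6934516-6934765 on the minus strand (Kcnk4), chr17:87797995-87798244 on the minus strand (Kcnk12), chr1:140245468-140245717 on the plus strand (Kcnt2), chr11:111065914-111066163 on the plus strand (Kcnj2), chr12:99964249-99964498 on the plus strand (Kcnk13) and chr3:89519914-89520163 on the plus strand (Kcnn3). Capitals mark 5 motifs searched on both strands: the GC box GGGCGG, the TATA box TATAAA, the E-box CAGATG, the cyclic AMP response element TGACGTCA and its core TGACG, which is contained in the full element.
Kcnj3: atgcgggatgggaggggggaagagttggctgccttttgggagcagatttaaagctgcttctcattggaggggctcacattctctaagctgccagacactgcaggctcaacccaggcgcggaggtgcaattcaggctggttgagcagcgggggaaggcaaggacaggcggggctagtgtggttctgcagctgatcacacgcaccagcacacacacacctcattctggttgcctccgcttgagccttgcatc
Kcnj9: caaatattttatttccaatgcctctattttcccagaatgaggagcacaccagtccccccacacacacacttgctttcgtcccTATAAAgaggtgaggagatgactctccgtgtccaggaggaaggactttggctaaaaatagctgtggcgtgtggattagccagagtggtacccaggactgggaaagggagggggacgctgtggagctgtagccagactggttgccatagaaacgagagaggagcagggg
Kcnk4: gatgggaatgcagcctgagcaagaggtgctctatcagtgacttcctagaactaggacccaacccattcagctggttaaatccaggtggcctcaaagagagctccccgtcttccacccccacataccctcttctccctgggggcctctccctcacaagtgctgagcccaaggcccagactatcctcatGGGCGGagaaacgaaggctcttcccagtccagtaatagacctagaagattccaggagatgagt
Kcnk12: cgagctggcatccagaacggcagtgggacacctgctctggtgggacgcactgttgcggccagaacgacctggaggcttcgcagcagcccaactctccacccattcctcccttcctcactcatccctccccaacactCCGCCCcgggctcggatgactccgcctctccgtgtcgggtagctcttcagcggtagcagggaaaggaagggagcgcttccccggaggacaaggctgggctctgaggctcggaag
Kcnt2: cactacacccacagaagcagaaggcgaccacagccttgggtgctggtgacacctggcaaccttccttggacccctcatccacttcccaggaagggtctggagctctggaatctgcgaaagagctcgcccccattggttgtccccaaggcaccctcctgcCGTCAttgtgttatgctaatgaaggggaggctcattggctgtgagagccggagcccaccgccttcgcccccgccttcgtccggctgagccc
Kcnj2: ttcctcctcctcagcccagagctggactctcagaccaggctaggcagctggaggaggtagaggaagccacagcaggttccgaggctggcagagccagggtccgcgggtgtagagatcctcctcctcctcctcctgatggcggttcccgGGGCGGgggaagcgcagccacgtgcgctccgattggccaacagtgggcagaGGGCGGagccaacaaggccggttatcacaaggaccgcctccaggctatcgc
Kcnk13: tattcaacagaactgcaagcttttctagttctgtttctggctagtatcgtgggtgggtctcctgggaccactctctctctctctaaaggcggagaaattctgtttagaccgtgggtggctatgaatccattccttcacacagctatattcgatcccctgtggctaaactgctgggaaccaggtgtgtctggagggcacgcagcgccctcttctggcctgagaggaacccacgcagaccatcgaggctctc
Kcnn3: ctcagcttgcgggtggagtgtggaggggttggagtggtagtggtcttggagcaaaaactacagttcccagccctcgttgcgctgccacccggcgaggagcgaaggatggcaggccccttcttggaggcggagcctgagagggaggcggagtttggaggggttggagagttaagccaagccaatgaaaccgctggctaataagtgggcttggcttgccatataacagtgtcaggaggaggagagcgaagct
The GC box stands once in Kcnk4 and Kcnk12 and in 2 places in Kcnj2, Kcnj9 holds a TATA box, and Kcnt2 holds the response element core without the full element. Kcnj3, Kcnk13 and Kcnn3 hold none of the 5 motifs in this window. Among 32851 promoters of the same length, 32.7% hold the GC box, 12.4% the TATA box, 14.4% the E-box, 17.8% the core and 1.55% the full response element. The GC content was 58.4% in Kcnj3, 52.0% in Kcnj9, 54.8% in Kcnk4, 64.8% in Kcnk12, 61.6% in Kcnt2, 65.6% in Kcnj2, 52.8% in Kcnk13 and 58.8% in Kcnn3, beside a median of 52.4% over all promoters. These matches describe the letters and are not binding sites.

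**Figure D2:**
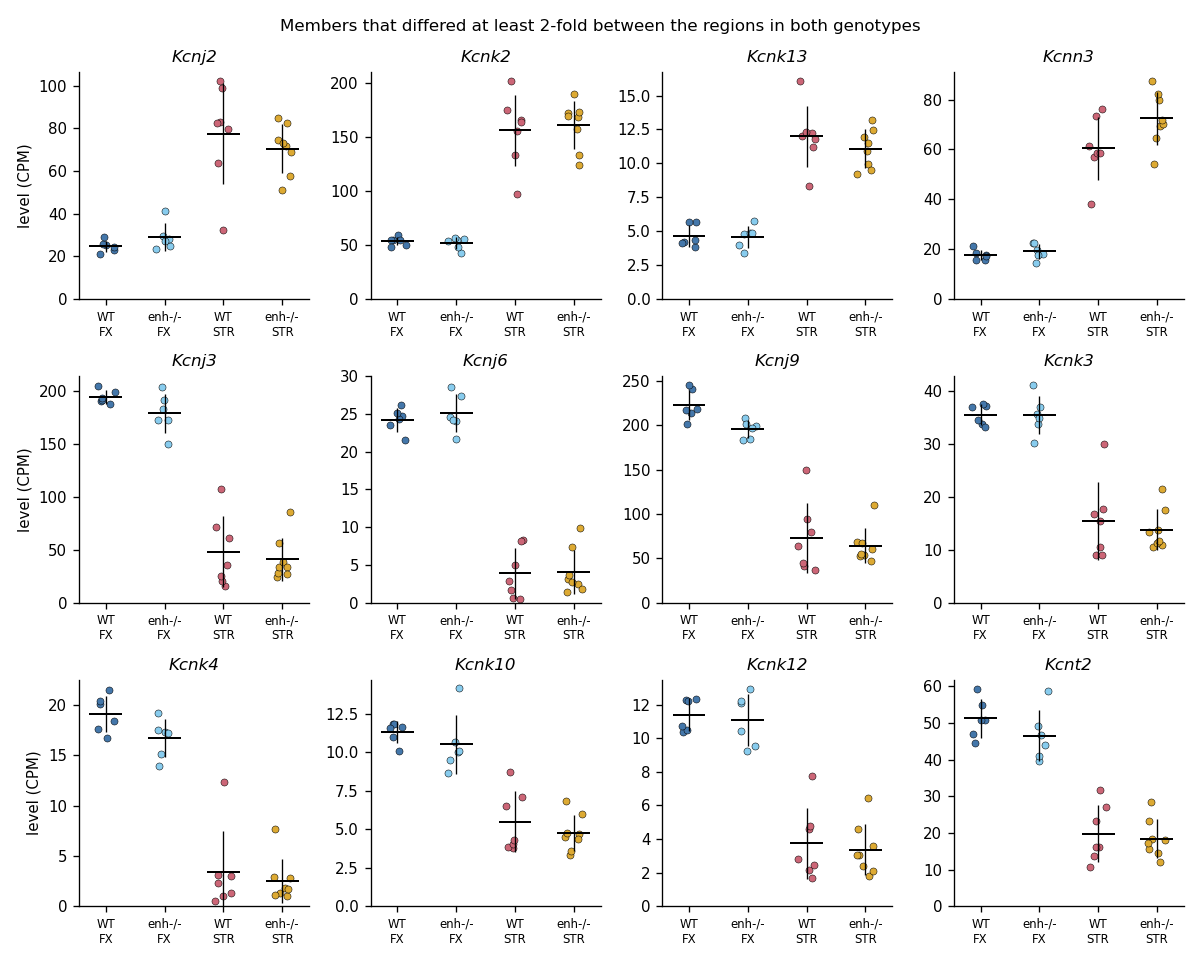
Level in CPM of the 12 members that differed at least 2-fold in both genotypes, 1 point per library, with the mean as a horizontal line and 1 SD as a vertical line cut at 0. WT is wild-type, enh-/- is Igf2enh-/-, FX is frontal cortex and STR is striatum. The top row holds the 4 genes higher in striatum, and the other rows the 8 that were lower.

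Kir2 channels are the strong inward rectifiers. Kcnj2, which encodes Kir2.1, ran from 21.3 to 28.9 CPM (median 24.9) in wild-type frontal cortex and from 32.5 to 102 CPM (median 82.3) in wild-type striatum. All wild-type striatum libraries lay above all wild-type frontal cortex libraries, the lowest being library 20. Its log2 fold change was 1.63 (SE 0.177, edgeR adjusted p = 1.40e-08). In Igf2enh-/- mice the ranges were 23.2 to 41.3 CPM and 51.0 to 84.9 CPM, again without overlap, and the log2 fold change was 1.27 (SE 0.171, edgeR adjusted p = 4.00e-07). Kcnj4, the Kir2.3 gene, had the highest level per exon length of all members in striatum, 94.7 CPM per kilobase in wild-type mice. Its range of 126 to 135 CPM in wild-type frontal cortex and 144 to 236 CPM in wild-type striatum did not overlap either. It rose by a log2 fold change of 0.63 (SE 0.0883, edgeR adjusted p = 8.74e-07) in wild-type and of 0.62 in Igf2enh-/- mice. Kcnj12, the Kir2.2 gene, fell with log2 fold changes of -0.34 in each genotype, from means of 15.6 to 12.4 CPM in wild-type mice. Kcnj14, for Kir2.4, stayed between 1.03 and 1.97 CPM in all libraries and was not called.

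Kir3 or GIRK channels are opened by Gβγ and mediate slow inhibition by GABA-B, dopamine, adenosine, opioid and serotonin receptors. Kcnj3 (GIRK1) ran from 187 to 204 CPM (median 192) in wild-type frontal cortex and from 15.3 to 107 CPM (median 35.6) in wild-type striatum. The frontal cortex libraries were close together, and the striatum libraries spread widely below them without overlap. It differed by a log2 fold change of -2.10 (SE 0.319, edgeR adjusted p = 2.82e-06) in wild-type and -2.18 (SE 0.306, adjusted p = 7.39e-07) in Igf2enh-/- mice. Of the exon bases of Kcnj3, 31.1% are shared with a noncoding RNA gene on the opposite strand, and the strand setting of the counting is not given in the sources used here. Kcnj6 (GIRK2) ran from 21.5 to 26.2 CPM (median 24.5) in wild-type frontal cortex and from 0.484 to 8.32 CPM (median 2.90) in wild-type striatum. It showed the steepest fall of the called members in wild-type mice, with a log2 fold change of -2.73 (SE 0.416, edgeR adjusted p = 2.81e-06), and the value in Igf2enh-/- mice was -2.69. Kcnj9 (GIRK3), the member of highest level per exon length in wild-type frontal cortex at 68.1 CPM per kilobase, ran from 201 to 245 CPM there (median 218). In wild-type striatum it ran from 37.3 to 149 CPM (median 63.7), so that library 20 at the upper end still lay below every frontal cortex library. Its log2 fold change was -1.65 (SE 0.234, edgeR adjusted p = 1.02e-06) in wild-type and -1.62 (SE 0.224, adjusted p = 5.83e-07) in Igf2enh-/- mice. Kcnj5 (GIRK4) was the exception in direction. It had 0 to 6 counts in each frontal cortex library and 11 to 47 in each striatum library, with medians of 0.0961 CPM and 0.969 CPM in wild-type mice, and no overlap. Its mean was under 1 CPM, and in the fit of all genes with at least 1 count its log2 fold change was 3.28 (SE 0.425, edgeR adjusted p = 1.17e-07) in wild-type and 4.07 in Igf2enh-/- mice.

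The genes that act upstream of GIRK channels did not share one direction. Of 12 receptors that open these channels, 11 were tested and 5 were higher and 5 lower in wild-type striatum, with a median log2 fold change of -0.20. Of all genes, 33.9% were called higher and 33.6% lower in that comparison. Drd2, the D2 dopamine receptor, rose from a mean of 0.950 to 276 CPM (log2 fold change 8.18, edgeR adjusted p = 9.31e-18), and the muscarinic receptor Chrm4 (1.48) and the cannabinoid receptor Cnr1 (1.10) rose too. Gabbr2, a subunit of the GABA-B receptor, fell from a mean of 496 to 154 CPM, a log2 fold change of -1.72 (edgeR adjusted p = 4.82e-08). Of 17 G protein and RGS protein genes, 8 were higher and 6 lower, with a median of 0.17, beside the same shares of all genes. Of smallest p were Rgs9 (6.89), which like Drd2 belongs to the medium spiny markers as well, and Gng7 (4.26), a striatal G protein gamma subunit, both higher. Rgs7 (-0.84) and Gnb1 (-0.37) were lower. In Igf2enh-/- mice 5 of the receptors were higher and 5 lower, and 9 of the G protein and RGS genes were higher and 6 lower. There 34.2% of all genes were called higher and 34.7% lower.

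Other inward rectifiers serve glia and epithelia. Kcnj10 (Kir4.1), the potassium buffering channel of astrocytes, ran from 226 to 291 CPM (median 258) in wild-type frontal cortex and from 202 to 392 CPM (median 234) in wild-type striatum. Of the 7 wild-type striatum libraries, 2 lay above and 3 below every wild-type frontal cortex library, and library 20 held the highest value. Between the regions the log2 fold change was -0.03 (SE 0.115, edgeR adjusted p = 0.857) in wild-type and -0.04 (SE 0.111, adjusted p = 0.753) in Igf2enh-/- mice. Of 10 astrocyte markers, 1 was called higher and 2 lower in wild-type striatum, where 67.5% of all genes were called, and 1 higher and 5 lower in Igf2enh-/- striatum, where 68.9% were. Kcnj16 (Kir5.1), which joins Kir4.1 in heteromeric channels, fell from a mean of 22.4 to 11.5 CPM in wild-type mice, being 2.01-fold lower in wild-type and 1.94-fold lower in Igf2enh-/- striatum. Kcnj13 (Kir7.1) is a channel of choroid plexus and other epithelia. In the wild-type groups it ran from 0.784 to 1.41 CPM in frontal cortex and from 0.0685 to 0.297 CPM in striatum, a separation without overlap that did not pass the test (log2 fold change -2.24, SE 1.26, edgeR adjusted p = 0.112). Among the Igf2enh-/- striatum libraries it lay between 0 and 0.664 CPM in 7 and at 16.5 CPM in library 15. All 15 choroid plexus markers were highest in library 15 among the striatum libraries, and the transthyretin gene Ttr reached 3028 CPM there against a median of 7.02 CPM in its group. With library 15 the log2 fold change of Kcnj13 in Igf2enh-/- mice was 0.56 (edgeR adjusted p = 0.597). Without it, and with all genes of at least 1 count kept, it was -2.87 (SE 0.429, edgeR adjusted p = 1.51e-06), and the wild-type value -2.29 (SE 0.415, adjusted p = 3.07e-05). Of the exon bases of Kcnj13, 49.1% are shared with Gigyf2 on the opposite strand, and reads of the overlapping stretch cannot be told apart without strand. Kcnj1 and Kcnj15 reached at most 1 and 4 counts in any library.

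Kir6 subunits form KATP channels, which close when ATP is high, together with sulfonylurea receptors. Kcnj8 (Kir6.1), a vascular subunit, ran from 2.40 to 3.75 CPM in wild-type frontal cortex and from 2.37 to 4.41 CPM in wild-type striatum. The ranges overlapped and no difference was called (log2 fold changes 0.22 and 0.12, edgeR adjusted p = 0.177 and 0.482). Both receptor genes were called in both genotypes, where 67.5% of all genes were called in wild-type and 68.9% in Igf2enh-/- mice. Abcc8 (SUR1) fell from a mean of 56.0 to 37.4 CPM in wild-type mice (log2 fold change -0.61) and Abcc9 (SUR2) rose from 9.98 to 12.3 CPM (0.29).

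The TWIK and THIK genes of the two-pore family were split. Kcnk1 (TWIK1), next after Kcnj4 in level per exon length in striatum, was higher there by a log2 fold change of 0.21 (SE 0.0712, edgeR adjusted p = 0.0105) in wild-type and 0.20 in Igf2enh-/- mice. Kcnk13 (THIK1), a channel known from microglia, ran from 3.84 to 5.68 CPM (median 4.26) in wild-type frontal cortex and from 8.36 to 16.1 CPM (median 12.0) in wild-type striatum. The groups did not overlap in either genotype, with log2 fold changes of 1.35 (SE 0.131, edgeR adjusted p = 2.18e-09) and 1.26 (SE 0.128, adjusted p = 4.34e-09). Beside it, 7 of 10 microglial markers were called higher in wild-type striatum (median log2 fold change 0.19) and 4 of 10 in Igf2enh-/- striatum (0.12), with 0 lower in either, where 33.9% and 34.2% of all genes were called higher. The part of microglia in the difference of Kcnk13 was not tested. Kcnk12 (THIK2), the closest relative of Kcnk13, went the other way. It ran from 10.4 to 12.4 CPM (median 11.5) in wild-type frontal cortex and from 1.68 to 7.72 CPM (median 2.80) in wild-type striatum, and the log2 fold change was -1.66 (SE 0.256, edgeR adjusted p = 3.29e-06) in wild-type and -1.75 in Igf2enh-/- mice. Kcnk6 (TWIK2) stayed between 2.84 and 6.89 CPM. It was called lower in Igf2enh-/- mice (-0.45, edgeR adjusted p = 0.000257) and was at -0.20 in wild-type mice (adjusted p = 0.0892), and the test of the difference between these values gave an unadjusted p of 0.0873. Kcnk7, a relative without a known current of its own, had at most 7 counts in any library.

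TREK and TRAAK channels open with stretch, warmth and polyunsaturated lipids. Kcnk2 (TREK1) ran from 48.6 to 59.4 CPM (median 54.5) in wild-type frontal cortex and from 97.1 to 202 CPM (median 164) in wild-type striatum. The groups did not overlap in either genotype. The log2 fold change was 1.53 (SE 0.122, edgeR adjusted p = 7.58e-11) in wild-type and 1.61 (SE 0.120, adjusted p = 2.08e-11) in Igf2enh-/- mice. Kcnk10 (TREK2) moved against it, from 10.1 to 11.9 CPM (median 11.6) in wild-type frontal cortex to 3.75 to 8.75 CPM (median 4.31) in wild-type striatum. Its log2 fold change was -1.08 (SE 0.173, edgeR adjusted p = 5.60e-06) in wild-type and -1.16 in Igf2enh-/- mice. Kcnk4 (TRAAK) ran from 16.7 to 21.4 CPM (median 19.3) in wild-type frontal cortex and from 0.484 to 12.3 CPM (median 2.34) in wild-type striatum. Of the wild-type striatum libraries, library 20 stood at the upper end and the other 6 lay at or under 3.05 CPM. For Kcnk4 the log2 fold change was -2.65 (SE 0.440, edgeR adjusted p = 9.58e-06) with library 20 and -3.37 (SE 0.360, adjusted p = 1.04e-08) without it, and -2.77 in Igf2enh-/- mice.

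TASK channels carry an acid-sensitive leak current. Kcnk3 (TASK1) ran from 33.2 to 37.6 CPM (median 35.8) in wild-type frontal cortex and from 8.99 to 30.1 CPM (median 15.4) in wild-type striatum. No striatum library reached the lowest frontal cortex library, and library 20 came closest. The log2 fold change was -1.24 (SE 0.200, edgeR adjusted p = 6.58e-06) in wild-type and -1.38 (SE 0.193, adjusted p = 6.81e-07) in Igf2enh-/- mice. Kcnk9 (TASK3) fell as well, with log2 fold changes of -1.13 and -0.98. Kcnk15 had at most 17 counts in any library. Of the alkaline-activated and other two-pore genes, Kcnk5 (TASK2) had 6 to 22 counts in each library, with medians from 0.332 to 0.493 CPM in the 4 groups, and Kcnk16 and Kcnk18 had at most 1 count in any library, where 3 counts are the limit that a count of 0 allows.

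Kcnma1 encodes the pore of the BK channel, which opens with both depolarization and calcium. It ran from 297 to 321 CPM (median 307) in wild-type frontal cortex and from 143 to 222 CPM (median 172) in wild-type striatum. There was no overlap in either genotype, and the log2 fold change was -0.79 (SE 0.0848, edgeR adjusted p = 1.38e-08) in wild-type and -0.76 (SE 0.0817, adjusted p = 1.05e-08) in Igf2enh-/- mice. The auxiliary subunits of the channel went mostly the same way. Of 8 genes listed, 5 were tested, and 4 of these were lower and 1 higher in wild-type striatum, where 33.6% of all genes were called lower and 33.9% higher. Kcnmb4, the neuronal beta subunit, fell from a mean of 70.3 to 33.7 CPM (log2 fold change -1.08, edgeR adjusted p = 1.99e-08), and Kcnmb2 (-1.55), Lrrc38 (-1.50) and Lrrc55 (-0.75) fell too. Kcnmb1, the smooth muscle beta subunit, was higher at 0.84 and is named as the exception, after its value was seen. Kcnu1 (Slo3), known as a sperm channel, had 59 to 122 counts in each library and log2 fold changes of -0.31 and -0.29 between the regions.

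SK channels open with calcium bound to calmodulin and produce the afterhyperpolarization. Kcnn3 (SK3) had the largest rise of the tested members and the smallest p of all 27 in both genotypes. It ran from 15.5 to 21.4 CPM (median 17.5) in wild-type frontal cortex and from 38.0 to 76.3 CPM (median 58.5) in wild-type striatum. Igf2enh-/- libraries ran from 14.5 to 22.4 CPM (median 18.8) and from 54.1 to 87.3 CPM (median 70.9). Neither genotype showed overlap, and the log2 fold changes were 1.76 (SE 0.135, edgeR adjusted p = 4.38e-11) and 1.91 (SE 0.133, adjusted p = 6.26e-12). The relatives moved the other way or little. Kcnn1 (SK1) fell with log2 fold changes of -0.44 and -0.49, and Kcnn2 (SK2) with -0.12 (edgeR adjusted p = 0.0374) and -0.19 (adjusted p = 0.00180). The wild-type call of Kcnn2 was lost without any 1 of libraries 10, 12, 14, 16, 18, 22 and 24, with adjusted p up to 0.0910. Kcnn4, the IK channel of blood cells and microglia, had 1 to 14 counts in each library.

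The sodium-activated pair was also split. Kcnt1 (Slack) ran from 184 to 200 CPM in wild-type frontal cortex and from 306 to 422 CPM in wild-type striatum, and its log2 fold change was 0.87 (SE 0.0748, edgeR adjusted p = 3.17e-10) in wild-type and 0.84 in Igf2enh-/- mice. Kcnt2 (Slick) ran from 44.5 to 59.4 CPM (median 50.8) and from 10.7 to 31.7 CPM (median 16.1) in the same groups. The groups did not overlap for either gene in either genotype. The log2 fold change of Kcnt2 was -1.42 (SE 0.175, edgeR adjusted p = 1.19e-07) in wild-type and -1.36 (SE 0.168, adjusted p = 1.01e-07) in Igf2enh-/- mice.

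Levels were next compared between genes per kilobase of merged exons. The exon lengths came from an older gene annotation than the counts, so the order of genes and the family shares are approximate. In wild-type frontal cortex the order was Kcnj9 (68.1 CPM per kilobase), Kcnma1 (64.7), Kcnj4 (61.0), Kcnj10 (47.8), Kcnk1 (41.4), Kcnj3 (37.2) and Kcnt1 (25.4). In wild-type striatum it was Kcnj4 (94.7), Kcnk1 (48.2), Kcnj10 (48.1), Kcnt1 (46.8), Kcnk2 (43.2), Kcnma1 (38.1) and Kcnj9 (22.3). The first 3 genes in frontal cortex and the group from Kcnk1 to Kcnma1 in striatum lay close together, and their differences were not tested. Summed over each family, the GIRK genes held 24.1% ± 0.858 (SD, n = 6) of the level of all members in wild-type frontal cortex and 7.44% ± 4.15 (SD, n = 7) in wild-type striatum. The Kir2 genes held 15.8% ± 0.548 and 26.5% ± 5.08 in the same groups. TREK and TRAAK genes held 6.48% and 10.8%, SK and IK genes 5.02% and 8.03%, and Slack and Slick 7.39% and 11.6%. BK and Slo3 held 14.5% and 9.00%, and TASK genes 3.52% and 1.67%. Within the TREK and TRAAK genes, Kcnk2 and Kcnk4 were at 14.8 and 11.1 CPM per kilobase in wild-type frontal cortex. In wild-type striatum they were at 43.2 and 1.96 CPM per kilobase. The shares of the TWIK and THIK genes (11.0% and 12.8%) and of the family of Kcnj10 (11.9% and 11.8%) lay closer together.

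**Figure D3:**
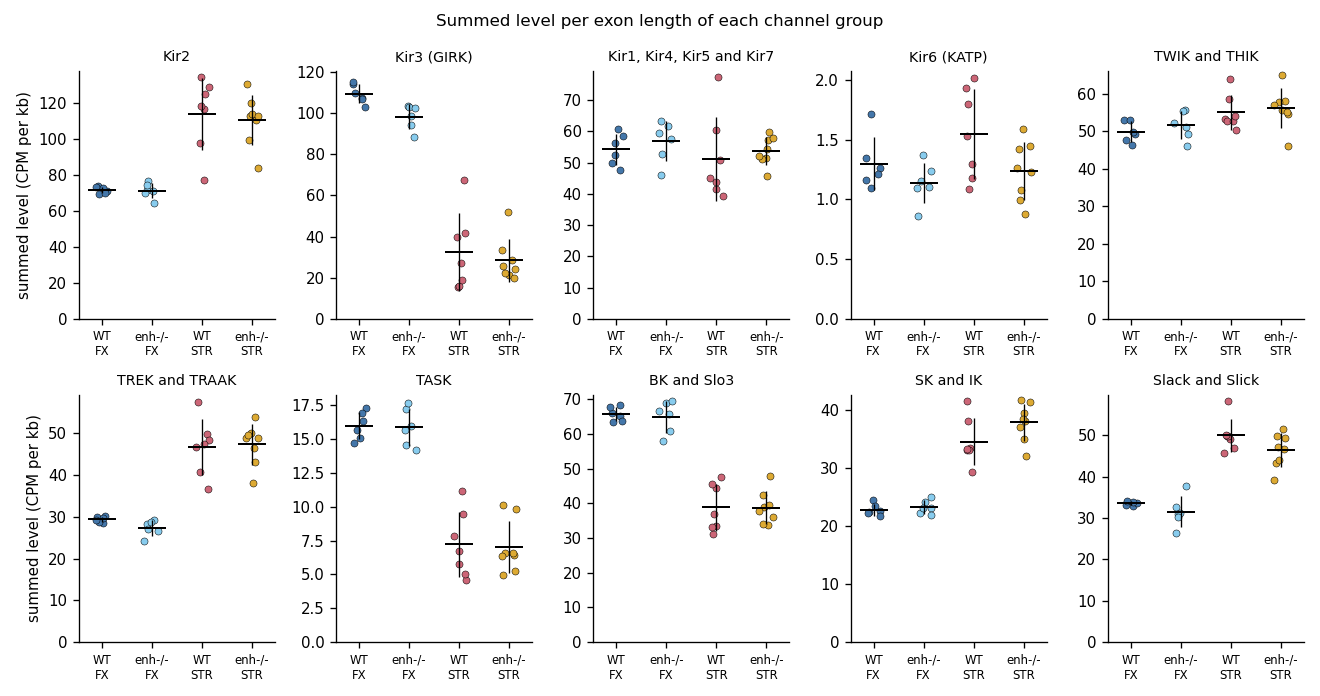
Summed level per exon length (CPM per kilobase) of the genes of each channel family, 1 point per library, with the mean as a horizontal line and 1 SD as a vertical line. WT is wild-type, enh-/- is Igf2enh-/-, FX is frontal cortex and STR is striatum. GIRK sums lie between 103 and 115 in wild-type frontal cortex and between 15.7 and 67.7 in wild-type striatum, and Kir2 sums between 69.6 and 73.6 and between 77.2 and 134.

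Within the striatum, several members that differed between the regions were extreme in the libraries with the most cortical marker RNA. Libraries 16, 20, 23 and 26 held the highest sums of the cortical projection neuron markers, 922, 1373, 1023 and 791 CPM, and libraries 22 and 14 the lowest, 66.8 and 79.7 CPM. For Kcnj3, Kcnj9, Kcnk4, Kcnk12, Kcnt2 and Kcnma1 those 4 libraries were also the 4 highest of the 15. For Kcnj6, Kcnk3, Kcnk10, Kcnj16 and Kcnn1 they were 3 of the 4 highest. Kcnj6 was at 0.484 CPM in library 14, 0.584 CPM in library 22, 9.90 CPM in library 23 and 8.32 CPM in library 20. Kcnj3 was at 15.3, 20.5, 85.2 and 107 CPM in the same 4 libraries. This did not hold for every member that was lower in striatum. For Kcnk9, Kcnn2 and Kcnu1 those libraries were 2 of the 4 highest, and for Kcnj12 none of them was, and library 20 was lowest. Of the 4 members that were higher in striatum at 2-fold or more, 0 had all 4 of those libraries as the 4 lowest. For Kcnj2, Kcnk2 and Kcnn3 they were 3 of the 4 lowest, with library 20 at the bottom, although Kcnn3 also had 1 of them among its 4 highest, and for Kcnk13 they were 2 of the 4 lowest. All 10 oligodendrocyte markers were highest in library 20 as well. Between the regions, all 10 oligodendrocyte markers were called higher in striatum in both genotypes (median log2 fold changes 1.81 and 1.74), where 33.9% and 34.2% of all genes were called higher. All 10 meningeal fibroblast markers (-1.61 and -1.59) and 5 of 6 GABAergic interneuron markers (-0.93 and -1.03) were called lower in both, where 33.6% and 34.7% of all genes were called lower. The part of these cell types in the regional differences was not tested. Without libraries 15 and 20, 22 of 26 tested members in wild-type and 23 of 26 in Igf2enh-/- mice were called. Without libraries 16, 20, 23 and 26, a set chosen after the data were seen, 23 members were called in each genotype. The share of all genes called was not counted for either subset, so these counts have no baseline. Of the 4 libraries in the second subset, 16, 20 and 26 are wild-type and 23 is Igf2enh-/-. They held most of the extreme striatal values of the genes that follow. Steeper fold changes without them were therefore largely fixed by the choice and are no separate evidence. In wild-type mice the log2 fold change went to -3.01 for Kcnj3, -4.10 for Kcnj6, -2.26 for Kcnj9, -3.88 for Kcnk4 and -2.33 for Kcnk12. It went to 1.88 for Kcnj2, 1.72 for Kcnk2 and 1.83 for Kcnn3. In Igf2enh-/- mice it went to -2.37 for Kcnj3, -2.96 for Kcnj6 and -3.20 for Kcnk4.

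**Figure D4:**
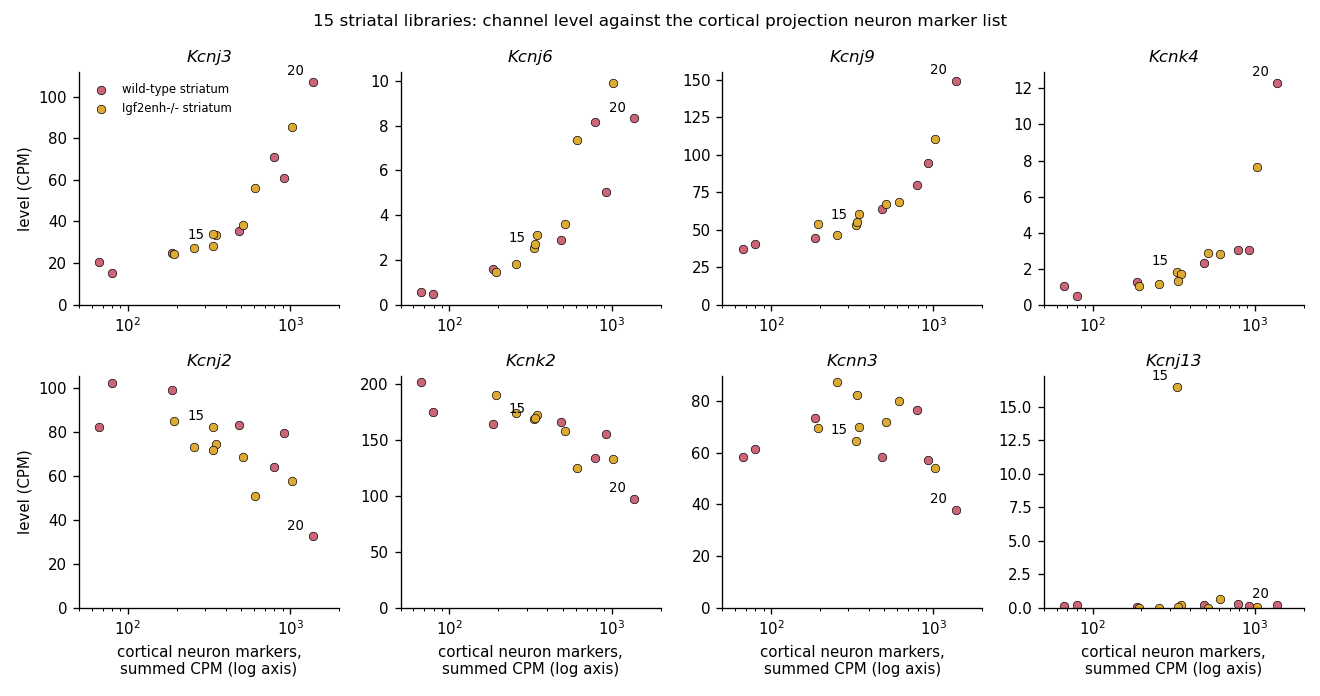
Level in CPM of 8 members in the 15 striatum libraries against the summed CPM of the cortical projection neuron markers (log axis), with wild-type and Igf2enh-/- libraries in different colours and libraries 15 and 20 numbered. Kcnj3, Kcnj6, Kcnj9 and Kcnk4 are higher to the right, Kcnj2, Kcnk2 and Kcnn3 are lowest in library 20, and Kcnj13 is high in library 15 alone at 16.5 CPM.

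Some members are neighbours in the genome, with positions here from NCBIM37. Kcnj9 and Kcnj10 lie 11946 bases apart on chromosome 1, facing away from each other, and Kcnj9 was lower in striatum while Kcnj10 was not called. Kcnj16 and Kcnj2 lie 38195 bases apart on chromosome 11 on the same strand, and the first was lower and the second higher in striatum. Kcnj5 and Kcnj1 lie 28180 bases apart on chromosome 9, and the second was near 0 in both regions.

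The second question was whether loss of the Igf2 enhancer fragment changed these genes within a region. In frontal cortex 26 members had at least 1 CPM in every library and were tested in edgeR's quasi-likelihood fit of genotype and sex. None was called, where 0.38% of the 13936 genes tested were called, and 2 had an unadjusted p under 0.05, against 13.5% of all genes. Log2 fold changes of Igf2enh-/- over wild-type ran from -0.19 to 0.23 with a median standard error of 0.0772, and in no member did the genotypes lie apart, as they did in 1.25% of all genes. Kcnj9 came closest. It ran from 201 to 245 CPM (median 218) in wild-type and from 183 to 209 CPM (median 198) in Igf2enh-/- frontal cortex, and 5 of the 6 Igf2enh-/- libraries lay below every wild-type library. Its log2 fold change was -0.18 (SE 0.0486, edgeR quasi-likelihood adjusted p = 0.123). Under edgeR's likelihood ratio test, which the study's methods name, the adjusted p was 0.0441, under DESeq2 0.0342, and with all genes of at least 1 count 0.00886, while limma-voom gave 0.125. In the first 3 of these Kcnj9 was the only member called. The share of all genes called was not counted in those 3 fits, so the call has no baseline there. Kcnk4 was next (log2 fold change -0.19, SE 0.0796, edgeR adjusted p = 0.313), followed by Kcnj3 (-0.12, SE 0.0567, adjusted p = 0.390), of which 4 of 6 Igf2enh-/- libraries lay below every wild-type library. Kcnj2 had a value of 0.23 (SE 0.118, edgeR adjusted p = 0.413), and 2 of its 6 values with the deletion exceeded the wild-type maximum.

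In striatum 24 members were tested, and Kcnj6 and Kcnk4 fell under the filter together with the genes of lowest level. None was called, where 0.036% of the 13875 genes tested were called, and none had an unadjusted p under 0.05, against 10.1% of all genes. DESeq2, limma-voom and the likelihood ratio test also called none, with 1 member at an unadjusted p under 0.05 in each. No member separated the genotypes, as 0.209% of all genes did. Log2 fold changes ran from -0.29 to 0.27, and the median standard error of 0.126 was larger than in frontal cortex. Kcnn3 had the smallest p. It ran from 38.0 to 76.3 CPM (median 58.5) in wild-type and from 54.1 to 87.3 CPM (median 70.9) in Igf2enh-/- striatum, with overlap, and its log2 fold change was 0.27 (SE 0.130, edgeR adjusted p = 0.506). Without library 20 it was 0.19 (edgeR adjusted p = 0.548). Without libraries 16, 20, 23 and 26 it was 0.27 (SE 0.0779, edgeR adjusted p = 0.268), and 6 members then had an unadjusted p under 0.05 with none called. The share of all genes under 0.05 was not counted for that subset, so the 6 cannot be read as a result about the members. Kcnk6 (-0.15, SE 0.0825, edgeR adjusted p = 0.567), Kcnj8 (-0.29, SE 0.157, adjusted p = 0.567) and Kcnj12 (0.11, SE 0.0711, adjusted p = 0.679) followed. For the genes of widest spread the interval is broad, since Kcnj3 and Kcnk12 had standard errors of 0.362 and 0.306 in striatum.

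**Figure D5:**
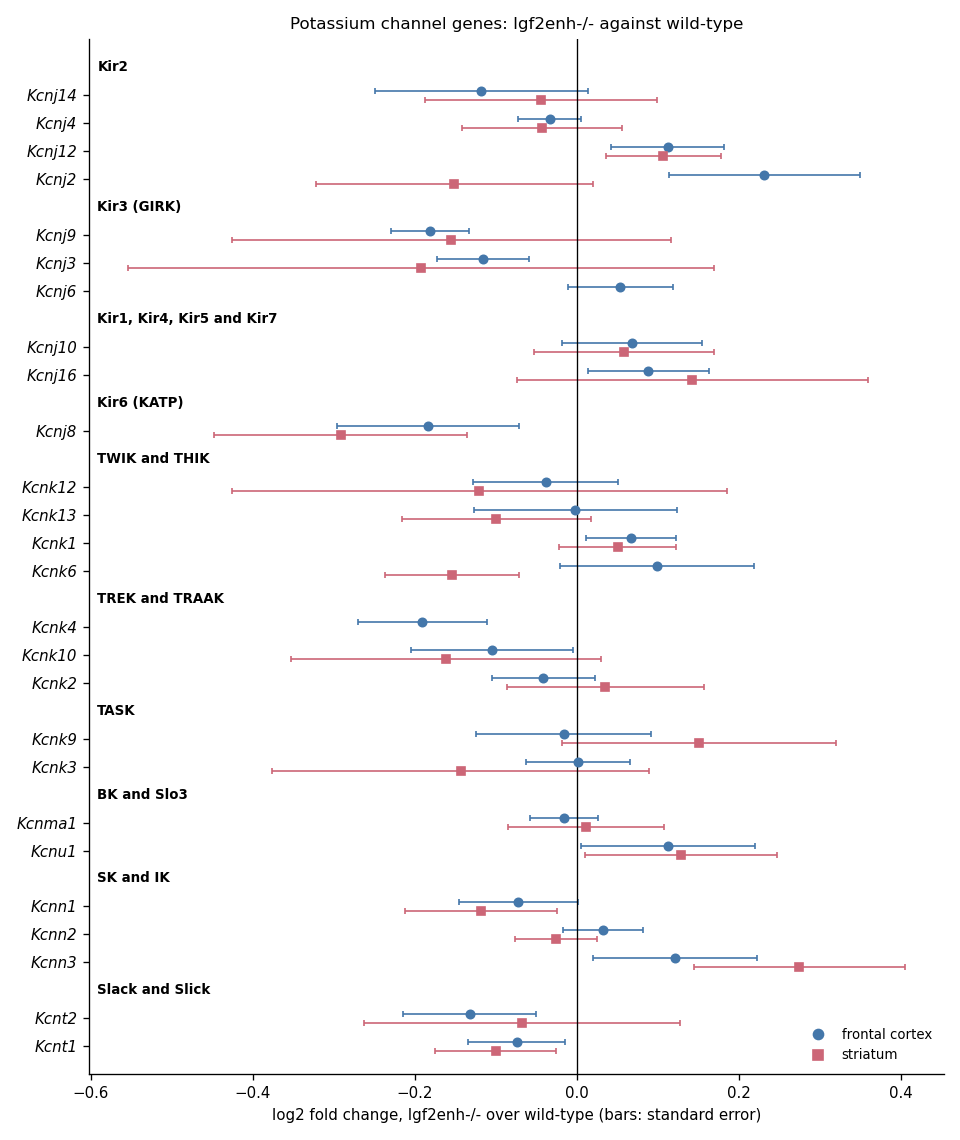
Log2 fold change of Igf2enh-/- over wild-type for the members tested in frontal cortex (circles) and striatum (squares), grouped by channel family, with bars of 1 standard error. All values lie between -0.29 and 0.27, and Kcnj9 in frontal cortex is at -0.18.

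The region by genotype term asked whether the deletion acted differently in the 2 regions. None of 27 members was called and none had an unadjusted p under 0.05, where 0% of 14909 genes were called and 2.9% had an unadjusted p under 0.05. DESeq2, limma-voom and the likelihood ratio test likewise found none on either count, and the share of all genes was not counted for them. Without libraries 16, 20, 23 and 26, 6 members had an unadjusted p under 0.05, and none was called. The share of all genes was not counted for that subset, so this number has no baseline. The smallest p values were those of Kcnj13 (difference in log2 fold change 2.80, SE 1.56, edgeR adjusted p = 1.00), which rests on library 15, Kcnk6 (-0.25, SE 0.143) and Kcnj2 (-0.37, SE 0.238). The partner lists gave no call for genotype in either region.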

How the data were processed

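Single-end 75-base reads came from ribosome-depleted RNA of bulk tissue. The authors used Trim Galore 0.5.0 for trimming and STAR for alignment to GRCm38, and deposited raw counts per GENCODE vM15 gene, 1 table per region. The strand setting of the counting is not given in the sources used here. All columns were mapped to samples by the library number that opens each label. The members and the gene lists were chosen with earlier results of these data known.

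Of 37 symbols that meet the rule, 36 matched identifiers. Counts were fitted as deposited with edgeR 4.0.16 in R 4.3.3 (TMM, quasi-likelihood F-test, Benjamini-Hochberg adjustment over all genes tested, adjusted p under 0.05) with sex as a term. The region comparisons and the interaction came from 1 fit of all 27 libraries over genes of mean 1 CPM or more, which left out 9 members. The genotype comparisons came from 1 fit per region over genes that reached 1 CPM in all of its libraries, as in the study's methods. In a simulated test, where 200 genes were given a log2 change of 0.8, these fits recovered 90.5% for the wild-type region comparison, 98.5% for genotype in frontal cortex and 92.5% in striatum. False calls numbered 13, 9 and 6 in the same order. The genotype values of the tested members lay between -0.29 and 0.27, and recovery of changes that small was not tested. Counts were drawn for each gene independently, and the recovery is an average over the 200 genes. Recovery in genes of wide spread, such as Kcnj3 and Kcnk12 in striatum, was not tested separately. Exon lengths came from GENCODE vM1 on NCBIM37 by gene identifier, and promoters from RefSeq on GRCm38.p6.

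Values are given in full for members called at 2-fold or more in both region comparisons, or else for the member of highest level per exon length in each of 11 families. The 4 smallest genotype p values per region, the top member per region and up to 4 genes of each partner list were added. One partner list is not reported here. Kcnj5 and other members outside that rule are given briefly to account for all 36 and were described after their values were seen. Alternatives were other scalings, edgeR's likelihood ratio test, limma-voom in limma 3.58.1, DESeq2 1.42.0, no sex term, other filters, other samples in the fit and each library left out. Figures were drawn with matplotlib 3.10.9 in Python 3.11.15.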

Additional observations from a re-analysis of the deposited data

Results flagged for a closer look

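In 108 groups of 6 to 8 libraries, of 27 members in 4 groups, a Dixon test of the most extreme library found 7 values apart from the rest, where chance alone gives about 1 in 20 groups. The number found is near that rate. The number beside each is the gap to the nearest library over the range of the group. Library 20 was lowest in wild-type striatum for Kcnn3 (0.581, with 38.0 CPM against 57.0 CPM in the next library), Kcnj2 (0.589, 32.5 against 63.9 CPM) and Kcnj12 (0.571, 9.46 against 11.9 CPM). It also held the highest sum of cortical projection neuron markers, 1373 CPM, and the lowest sum of medium spiny neuron markers, 3876 CPM, of the 15 striatum libraries, and the part of these cell types was not tested. Library 15 was highest in Igf2enh-/- striatum for Kcnj13 (0.76, 16.5 against 0.664 CPM) and Kcnj14 (0.801, 1.86 against 1.45 CPM), and it held 4710 CPM of choroid plexus markers. Library 23 was highest in Igf2enh-/- striatum for Kcnj9 (0.549, 110 against 68.6 CPM), with a cortical marker sum of 1023 CPM. Library 1 was highest in Igf2enh-/- frontal cortex for Kcnn2 (0.717, 53.0 against 46.4 CPM).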

How the results depend on the processing

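Over 40 alternatives each, between 19 and 24 members were called in the wild-type and between 21 and 25 in the Igf2enh-/- region comparison, and from 20 to 23 and from 22 to 23 when each library was left out in turn. The share of all genes called was not counted in any alternative, so the counts in this section have no baseline. No member was called for the interaction in 39 alternatives or for genotype in striatum in 26. For genotype in frontal cortex 0 were called in 18 of 21 alternatives. Kcnj9 was the 1 member called by the likelihood ratio test, 1 by DESeq2 and 1 with every gene of at least 1 count, and 0 were called with any library left out. The cause was not tested. The direction turned only for values far from a call or resting on library 15. Kcnj10 in wild-type mice went to 0.00607 (log2) with total count scaling and ran from -0.13 (without library 20) to 0.0308 (without library 24), and in Igf2enh-/- mice from -0.10 to 0.00741, as single libraries were left out. Kcnj13 in Igf2enh-/- mice went to -2.77 with limma-voom and to -2.87 without library 15 and with every gene of at least 1 count, and its interaction to -0.50 and -0.57. Kcnj13 in wild-type mice was called by the likelihood ratio test (adjusted p = 0.0449) and limma-voom (adjusted p = 0.0105). The wild-type call of Kcnn2 was lost in 11 alternatives, with adjusted p up to 0.137. Kcnj8 was called in wild-type mice without library 26 (0.31, edgeR adjusted p = 0.0391). The alternatives that drop libraries 15 and 20 together, libraries 16, 20, 23 and 26, or library 15 with a lower filter were chosen after seeing the data. No paired analysis was possible because library numbers are not shared between groups and no label names the mouse. Depth limits the 9 members under 1 CPM, 8 of which had at most 22 counts in any library.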
